A study of Mus musculus with 2 samples.

Results

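The 10 genes described here encode survival and death proteins of the Bcl2 family, chosen by name from the 55536 genes annotated for these libraries. They comprise 6 survival genes (Mcl1, Bcl2, Bcl2l1 and the copies Bcl2a1a, Bcl2a1b and Bcl2a1d), 3 genes of the BH3-only class (Bcl2l11, Pmaip1 and Bbc3) and 1 effector gene, Bax. They were measured in nuclear RNA, named as nucleoplasmic in the sample descriptions, by total RNA sequencing after ribosomal RNA depletion. The cells were primary macrophages grown from bone marrow of C57BL/6J mice and exposed to Lipid A, the part of bacterial lipopolysaccharide that TLR4 binds, at 100 ng/ml for 30 min. There was 1 group with 2 libraries, and no other genotype, treatment or time was analysed here. Replicate 1 began with 1 µg of RNA and replicate 2 with 500 ng. Sex and age are not given. Both libraries cite 1 donor entry, and nothing beyond the word biological says that the cultures were separate. The spread between the libraries may therefore be technical. Without an unstimulated sample, a level cannot be called induced or reduced by Lipid A.

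Proteins of the Bcl2 family decide at the outer mitochondrial membrane whether a cell starts apoptosis. Survival proteins hold back the pore-forming proteins Bax and Bak, and BH3-only proteins bind the survival proteins or act on Bax and Bak directly. Once the membrane is permeable, cytochrome c leaves the mitochondrion and caspases are activated through Apaf-1. In macrophages A1, encoded by the Bcl2a1 copies, is known as a target of NF-kB, the transcription factor that TLR4 activates, and Mcl-1 is known as a survival protein with a short half-life.

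The gene tables held 15846212 expected counts, called reads here, in replicate 1 and 14874879 in replicate 2. Levels are given in TPM, a read count divided by transcript length and set relative to all transcripts of the library, which can be compared between genes. Mitochondrially encoded genes took 2.18% and 6.14% of reads, and the small nuclear RNA Rn7sk took 12.3% and 25.8% of all TPM. Over genes with a mean of at least 50 reads, the median log2 ratio of TPM, replicate 2 over replicate 1, was -0.44. Ratios between the libraries are therefore given on TMM-scaled reads, where that median was -0.03. The part of these library differences in the ratios below was not tested. All 8 macrophage markers were detected, with summed TPM of 2627 and 3363, led by Lyz2. Of 7 neutrophil markers 2 were detected, Mmp8 and S100a9, with 4.07 and 7.71 TPM over the list, and Ly6g had 0 reads. B cell (0 of 5), mast cell or basophil (0 of 4) and erythroid markers (0 of 4) were not detected, with summed TPM of at most 0.410. Cd4 was the 1 T cell marker of 5 that was detected, at 23.9 and 34.9 TPM, and Cd3e and Cd3d had 0 reads in the gene tables. The second transcript tables put 4.02 and 3.37 TPM on Cd3d.

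The Bcl2a1 copies are shown first, because their values rest on few distinguishing bases. They lie in 3 places on chromosome 9 (mm10): Bcl2a1d from 88723285 to 88731914 on the minus strand, Bcl2a1a from 88956900 to 88962419 and Bcl2a1b from 89199209 to 89207827, both on the plus strand. Each has 1 annotated transcript, with 2 exons and a reading frame of 172 codons. Their coding sequences of 519 bases, stop codon included, differ among the copies at 12 positions. The first 110 coding bases (GENCODE M21 transcripts, GRCm38) hold 7 of the 12, in capitals.
Bcl2a1a: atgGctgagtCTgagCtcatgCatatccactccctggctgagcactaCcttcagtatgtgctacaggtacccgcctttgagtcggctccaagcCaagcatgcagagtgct
Bcl2a1b: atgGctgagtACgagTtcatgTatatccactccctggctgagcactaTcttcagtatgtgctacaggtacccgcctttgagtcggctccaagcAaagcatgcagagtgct
Bcl2a1d: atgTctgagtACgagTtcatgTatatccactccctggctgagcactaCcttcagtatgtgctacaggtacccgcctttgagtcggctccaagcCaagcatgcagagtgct
Over the whole coding sequence, Bcl2a1b and Bcl2a1d were 98.8% identical, Bcl2a1a and Bcl2a1d 98.7%, and Bcl2a1a and Bcl2a1b 97.9%. Of the 31-base words of each transcript, 161 of 789 were found in no other annotated gene for Bcl2a1a, 88 of 787 for Bcl2a1b and 91 of 833 for Bcl2a1d. For the 3 copies that is 20.4%, 11.2% and 10.9%, against 88.9% for Bax, 93.8% for Bcl2 and at least 99.5% for the other 5 members. Most of their words are shared, so the split of reads among the copies is uncertain.

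Mcl1 carried the highest level of the 10 genes. All 10 passed the detection limit, a TPM of 1 or more in each library, against 20.7% of all annotated genes and 42.4% of protein-coding genes. Their median of mean TPM was 48.1, against 8.61 over the 9339 detected protein-coding genes. The members and the related lists below were chosen with earlier results of these data known. These contrasts, and those with the related lists, are therefore descriptions and not tests. In bulk RNA, fewer cells with a transcript and less of it per cell cannot be told apart.

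Among survival genes, Mcl1 (ENSMUSG00000038612.16, chromosome 3 from 95658788 to 95663176) had 604 TPM in replicate 1 and 385 TPM in replicate 2, from 32981 and 25832 reads. Its mean of 495 ± 155 TPM (SD, n = 2) was above 99.4% of detected protein-coding genes. Bcl2, the founding member of the family (ENSMUSG00000057329.7, chromosome 1 from 106538178 to 106714274), stood at the other end with 3.28 and 1.85 TPM, from 250 and 200 reads. The TPM of Mcl1 was 184 times that of Bcl2 in replicate 1 and 208 times in replicate 2, and 124 and 103 times in the second transcript tables. Bcl2l1 (ENSMUSG00000007659.18, chromosome 2 from 152780668 to 152831728), which encodes Bcl-xL, had 85.2 and 24.3 TPM, from 2680 and 987 reads. The TPM of Mcl1 was 7.09 and 15.8 times that of Bcl2l1, so at gene level the gap was wider in replicate 2. Transcripts that reach into an intron, described below, held 82.8% and 49.9% of the TPM of Bcl2l1. Its spliced transcript Bcl2l1-201 had 14.6 and 12.2 TPM, so the wider gap does not hold for that transcript.

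Of the Bcl2a1 copies, Bcl2a1b (ENSMUSG00000089929.1) had 142 and 67.8 TPM, from 1430 and 865 reads. Bcl2a1d (ENSMUSG00000099974.1) had 119 and 37.8 TPM, from 1294 and 519 reads. Bcl2a1a (ENSMUSG00000102037.1) had 4.63 and 2.04 TPM, from 46.8 and 26.1 reads, and was low in both libraries. The deposited posterior SDs of the reads were 19.8 and 10.8 for Bcl2a1b, 9.04 and 6.92 for Bcl2a1d and 4.45 and 3.05 for Bcl2a1a. These SDs describe the assignment of reads within 1 library and are far smaller than the gap between Bcl2a1a and the other copies. Bcl2a1d held 44.8% and 35.1% of the summed TPM of the copies, and Bcl2a1b held 53.4% and 63.0%. The second transcript tables, made from the reads by another route, gave Bcl2a1d 51.9% and 42.6% of the copies' estimated counts and Bcl2a1a 2.75% and 2.63%. Which of Bcl2a1b and Bcl2a1d was higher in replicate 1 differed between the tables, with 65.6 TPM for Bcl2a1b and 69.5 TPM for Bcl2a1d in the second. In replicate 2 Bcl2a1b was the higher copy in both tables. Summed over the copies, which sidesteps the split, A1 reached 266 and 108 TPM, from 2771 and 1411 reads. The annotated gene Gm29094 shares strand and 401 exon bases with Bcl2a1b and had 112 and 33.7 reads, so reads of these genes cannot be separated with certainty either.

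Bcl2l11 was the dominant BH3-only gene. It encodes Bim, a BH3-only protein that binds all survival proteins of the family, and lies on chromosome 2 from 128126038 to 128162547 (ENSMUSG00000027381.16). It had 322 and 164 TPM, from 12979 and 8731 reads, a mean of 243 ± 112 TPM (SD, n = 2) above 98.6% of detected protein-coding genes. Pmaip1 (ENSMUSG00000024521.8, chromosome 18 from 66458533 to 66465565) encodes Noxa, which binds Mcl-1 and A1. It had 25.1 TPM in both libraries, from 973 and 1200 reads. Bbc3 (ENSMUSG00000002083.13, chromosome 7 from 16308393 to 16318205) encodes Puma, a target of p53, and had 3.88 and 3.53 TPM, from 74.0 and 87.0 reads. Bcl2l11 held 91.7% and 85.1% of the summed TPM of the 3 BH3-only genes. Its TPM was 12.8 and 6.53 times that of Pmaip1, and 82.9 and 46.4 times that of Bbc3. In the second transcript tables these ratios were 16.6 and 8.12 to Pmaip1, and 37.1 and 25.7 to Bbc3. Transcripts that reach into an intron, described below, held 74.3% and 70.4% of the TPM of Bcl2l11. Its spliced transcript Bcl2l11-205 had 72.4 and 46.4 TPM, so ratios of this size do not hold for that transcript.

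Bax (ENSMUSG00000003873.11, chromosome 7 from 45461697 to 45466898), the effector that forms pores in the mitochondrial membrane, had 52.9 and 30.0 TPM, from 652 and 470 reads. Bak1, the other effector of this kind, had 2.21 and 4.95 TPM, from 74.0 and 188 reads. Of the summed TPM of the 10 members, survival genes held 70.4% and 70.0%, BH3-only genes 25.8% and 25.9%, and Bax 3.88% and 4.04%. These shares differed between the libraries by less than 1 percentage point, while Mcl1 alone held 44.4% and 52.0% and the Bcl2a1 copies 19.5% and 14.5%. The shares count all transcripts, coding or not. Bcl2l11 made up most of the BH3-only share, and 66.2% of its TPM, as a mean of the libraries, lay in protein-coding transcripts. That class includes Bcl2l11-202, a form of 91 codons that ends inside an intron and held 39.7% and 37.4% of the gene's TPM. The spliced Bcl2l11-205, with 196 codons, held 22.5% and 28.4%, so the protein-coding share is not that of the full-length form.

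**Figure D1:**
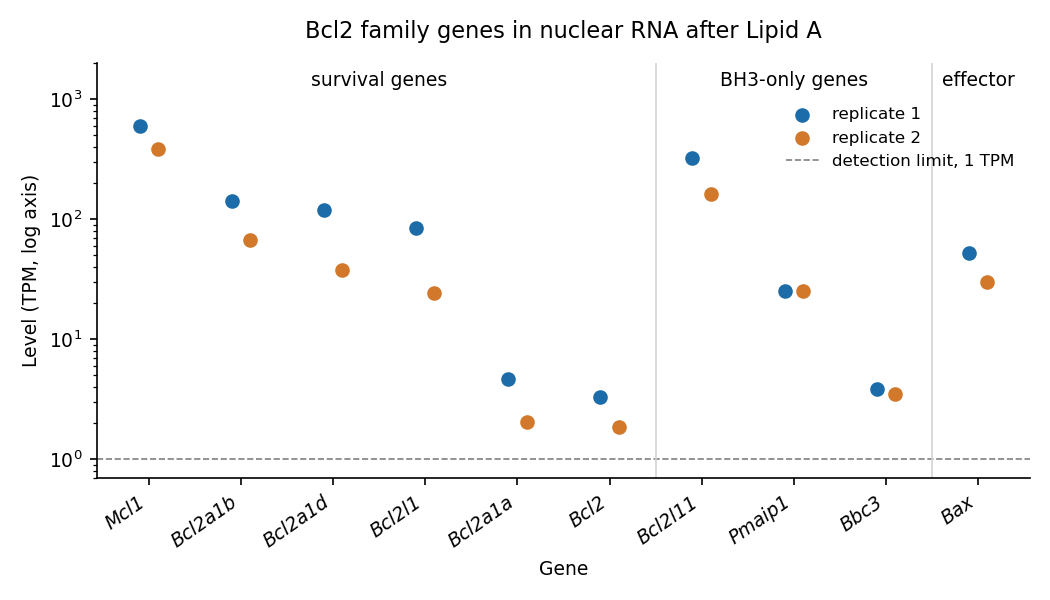
Levels of the 10 Bcl2 family genes in TPM on a log axis, 1 point per library, grouped by role, with the detection limit of 1 TPM as a dashed line. Mcl1 lies highest at 604 and 385 TPM, Bcl2l11 leads the BH3-only genes at 322 and 164 TPM, and Bcl2 lies lowest at 3.28 and 1.85 TPM.

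By mean TPM the order was Mcl1, Bcl2l11, Bcl2a1b, Bcl2a1d, Bcl2l1, Bax, Pmaip1, Bbc3, Bcl2a1a and Bcl2. The libraries' values did not overlap between Mcl1 and Bcl2l11, between Bcl2l11 and Bcl2a1b, between Bax and Pmaip1, or between Pmaip1 and Bbc3. The other 5 pairs of neighbours overlapped across libraries. Of these, Bcl2a1b over Bcl2a1d, Bcl2a1d over Bcl2l1 and Bcl2a1a over Bcl2 kept their order within each library, with TPM ratios of 1.10 to 1.79. The order of Bcl2l1 and Bax, and of Bbc3 and Bcl2a1a, differed between the libraries. Within each library Mcl1, Bcl2l11, Bcl2a1b and Bcl2a1d held ranks 1 to 4 and Bcl2 rank 10. Bcl2l1 held rank 5 in replicate 1 and rank 7 in replicate 2. These orders are those of the gene tables. In the second transcript tables Bcl2a1d was above Bcl2a1b in replicate 1. There Bcl2a1a, at 1.48 TPM, was below Bcl2, at 1.94 TPM, in replicate 2. Bbc3, at 5.63 and 3.66 TPM, was above Bcl2a1a, at 3.96 and 1.48 TPM, in both libraries of those tables. In replicate 2 they put Bcl2l1, at 12.7 TPM, above Pmaip1, at 11.6 TPM.

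Bcl2l1 and Bcl2a1d differed most between the libraries. A gene was called beyond 2-fold with a mean of at least 50 reads, a ratio of scaled reads above 2 either way and interval bounds that did not overlap. Of the 9 members with that many reads 2 passed, against 8.39% of 10448 genes. Both were lower in replicate 2, against 3.63% of genes in that direction. No member was beyond 2-fold higher in replicate 2, against 4.77% of genes. Bcl2l1 had a log2 ratio of -1.38, below which lay 1.22% of genes, and Bcl2a1d had -1.25, below which lay 1.76%. In the second transcript tables these log2 ratios were -1.21 for Bcl2l1 and -1.17 for Bcl2a1d. Bcl2a1b had a log2 ratio of -0.66 and the sum of the copies -0.91, both short of 2-fold. The call of Bcl2a1d thus depends on the split of reads among the copies, which is uncertain. Bcl2a1a, under the read minimum, had -0.79. Bcl2l11 had -0.51, Bax -0.41, Mcl1 -0.29 and Bcl2 -0.26. Pmaip1 had 0.37 and Bbc3 0.30, both higher in replicate 2 on scaled reads, while on TPM neither was higher. Of the 9 members, 7 had a log2 ratio below 0, against 52.4% of genes. With 1 group, these ratios compare libraries and not conditions, and have no p-value.

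**Figure D2:**
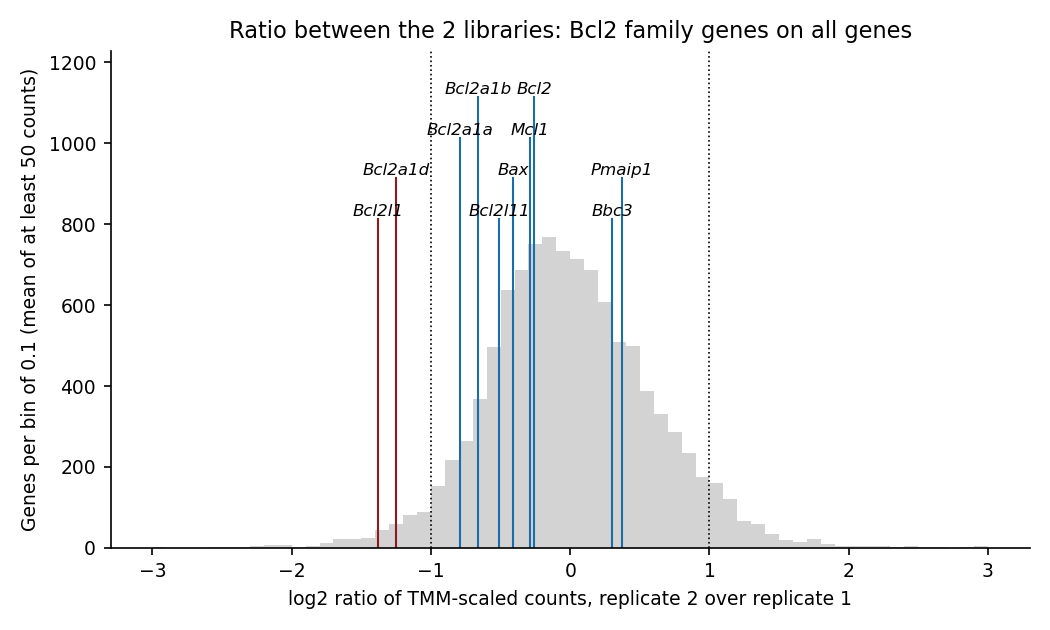
Histogram of the log2 ratio of TMM-scaled reads, replicate 2 over replicate 1, for genes with a mean of at least 50 reads, with the 10 members as lines and 2-fold as dotted lines. Bcl2l1 at -1.38 and Bcl2a1d at -1.25 lie beyond 2-fold, drawn in dark red, and Bcl2a1a is drawn although its mean is under 50 reads.

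Transcripts of Bcl2l1, Bcl2 and Bcl2l11 that reach into an intron are the next point, and the bases at the exon end where they part from the spliced form are shown for that reason. In each gene the exon named here ends at 1 base shared by the transcripts: base 152829427 of chromosome 2 for Bcl2l1, base 106712305 of chromosome 1 for Bcl2 (both minus strand) and base 128129014 of chromosome 2 for Bcl2l11 (plus strand). Lower case gives the 30 bases up to that point and capitals the 30 bases that follow in the transcript (GENCODE M21, GRCm38).
Bcl2l1-201: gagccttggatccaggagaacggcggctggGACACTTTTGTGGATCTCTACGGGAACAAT
Bcl2l1-205: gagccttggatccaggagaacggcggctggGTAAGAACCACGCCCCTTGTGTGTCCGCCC
Bcl2-201: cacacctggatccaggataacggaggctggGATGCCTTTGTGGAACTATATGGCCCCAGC
Bcl2-202: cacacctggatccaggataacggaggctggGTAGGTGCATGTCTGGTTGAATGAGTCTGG
Bcl2l11-205: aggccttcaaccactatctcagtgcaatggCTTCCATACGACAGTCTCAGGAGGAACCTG
Bcl2l11-202: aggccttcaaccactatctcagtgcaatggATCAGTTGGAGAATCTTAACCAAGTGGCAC
Bcl2l11-208: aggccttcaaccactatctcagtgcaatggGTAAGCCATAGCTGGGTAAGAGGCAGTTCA
In Bcl2l1-205, Bcl2-202 and Bcl2l11-208 the exon runs on into the intron, and the capitals open with GT, the first bases of most introns. In the other 4 the exon is joined to a later one. The introns that follow in the spliced forms span 47144 bases in Bcl2l1, 168906 bases in Bcl2 and 18070 bases in Bcl2l11. The exon ends of Bcl2l1 and Bcl2 are alike, with 24 of 30 bases the same before the junction.

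The 10 members have 37 annotated transcripts, and 7 members have 2 or more. The transcript with the highest share of a gene's TPM was the same in both libraries for 5 of these 7, against 76.6% of 9116 such genes. The exceptions were Bcl2l1 and Bcl2. In the second transcript tables the leading transcript was also the same for 5 of these 7, but there the exceptions were Bcl2l1 and Bbc3. All 10 members had over 50% of their TPM in transcripts of the protein-coding class, against 79.5% of detected protein-coding genes. The lowest such shares were 57.9% for Bbc3 and 66.2% for Bcl2l11. Each Bcl2a1 copy has a single transcript, of that class, so its share was fixed by the annotation. The class also holds transcripts that reach into an intron, such as Bcl2l1-205 and Bcl2-202, so a high share does not mean spliced RNA. The transcript with the longest reading frame served as the spliced form of each gene, and a transcript with at least 100 exon bases inside its introns was called intron-bearing. Reads on such a transcript come from the annotated form or from RNA not yet spliced, and these cannot be told apart.

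In Bcl2l1 the difference between the libraries lay on the intron-bearing transcripts. Bcl2l1-201, the spliced form with 233 codons that encodes Bcl-xL, had 548 reads in replicate 1 and 562 in replicate 2. Bcl2l1-205, which runs on past the exon end shown above and has 209 codons, had 1804 and 267 reads. It held 61.8% of the gene's TPM in replicate 1 and 25.9% in replicate 2, while Bcl2l1-201 held 17.2% and 50.1%. Over all its intron-bearing transcripts Bcl2l1 had 2132 and 425 reads, which is -2.26 as a scaled log2 ratio, against 0.10 for the rest of its transcripts. The second transcript tables gave -1.92 and -0.07. The difference between the classes was -2.36, against a median of -0.10 over 5226 protein-coding genes with a mean of at least 20 reads in each class. Of those genes, 1.21% had a lower difference.

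Bcl2 had the same kind of switch at few reads. Bcl2-201, the spliced form with 236 codons, had 166 and 158 reads, and Bcl2-202, a single exon with 199 codons, had 84.6 and 42.0. Bcl2-202 held 57.6% of the gene's TPM in replicate 1 and 41.4% in replicate 2. In the second transcript tables Bcl2-202 was higher than Bcl2-201 in both libraries, at 2.54 and 1.45 TPM against 0.574 and 0.494 TPM, so the change of leading transcript was seen in 1 kind of table. Of the 4 members with a mean of at least 20 reads in each class (Bcl2l1, Bcl2, Bcl2l11 and Bax), the intron-bearing transcripts were lower relative to the others in replicate 2 in all 4, against 55.3% of genes. The difference in log2 ratio was -0.94 for Bcl2, -0.35 for Bcl2l11 and -0.14 for Bax, and 15.6%, 37.2% and 48.0% of genes had a lower one. Bbc3, under the read minimum in 1 class, was at 0.30. In the second transcript tables, by contrast, 4 of 5 members were lower, against 60.8% of genes, and Bbc3 was at 0.48.

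Bcl2l11 had most of its TPM outside the spliced full-length form in both libraries. Bcl2l11-205, with 196 codons, is the form of BimEL, the longest Bim protein, and held 22.5% and 28.4% of TPM, from 5954 and 4680 reads. Bcl2l11-202, which ends in an exon inside the intron and has 91 codons, held 39.7% and 37.4%, from 4536 and 2680 reads. The non-coding transcript Bcl2l11-208, which runs on past the exon end, held 25.8% and 24.6%, from 1965 and 1183 reads. By reads the order was thus different from that by TPM, since Bcl2l11-205 is the longest at 5036 bases. Intron-bearing transcripts took 74.3% and 70.4% of the gene's TPM, and 51.1% and 45.0% of its reads. Bcl2l11-203, with 140 codons, the form of BimL, held 2.03% and 1.01% of TPM. Of the transcripts with 110 codons, the form of BimS, Bcl2l11-201 had 0 reads in both libraries and Bcl2l11-204 had 29.1 and 3.46. The second transcript tables put 37.2 and 5.05 TPM on Bcl2l11-204, so its level depends on the table.

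**Figure D3:**
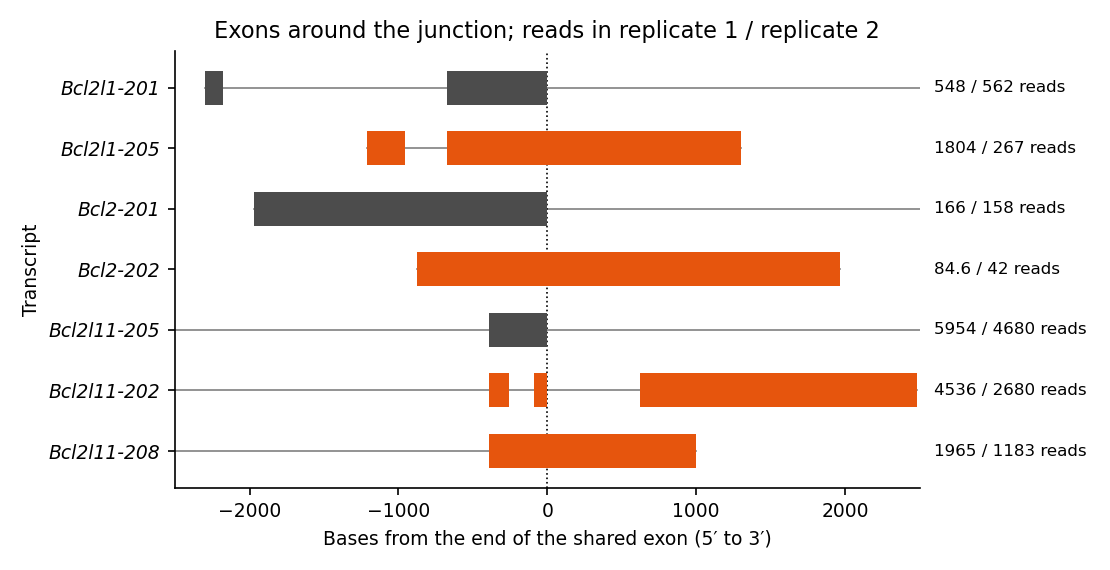
Exons of the leading transcripts of Bcl2l1, Bcl2 and Bcl2l11, drawn to scale in bases from the end of the shared exon, within 2500 bases either way, with reads per library at the right. Orange marks intron-bearing transcripts, among which Bcl2l1-205 had 1804 and 267 reads, while the spliced Bcl2l1-201 had 548 and 562.

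In Bax, the spliced transcript Bax-201, with 192 codons, held 46.5% and 53.1% of TPM, from 268 and 220 reads. Bax-203, which keeps 470 bases of introns, held 43.5% and 42.6%, from 342 and 239 reads. Bbc3-201, with 193 codons, held 53.2% and 54.2%, and the retained-intron transcript Bbc3-203 held 38.3% and 45.8%, from 16.6 and 22.8 reads. In the second transcript tables Bbc3-201 had 1.19 and 0.902 TPM and did not lead. There Bbc3-204, with 91 codons, led in replicate 1 at 1.79 TPM, and Bbc3-203 led in replicate 2 at 1.36 TPM. Pmaip1 has no intron-bearing transcript. Pmaip1-201 led with 77.5% and 54.2% of TPM, and Pmaip1-203 had 9.93% and 36.6%, from 98.4 and 446 reads. The second transcript tables put 0.580 and 0.326 TPM on Pmaip1-203, against 9.16 and 9.71 TPM on Pmaip1-201, and show no such gain. Mcl1 had all its reads on Mcl1-201, with 331 codons, in the first tables. The second tables put 117 and 8.78 TPM on Mcl1-202, with 285 codons, and 269 and 192 TPM on Mcl1-201.

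**Figure D4:**
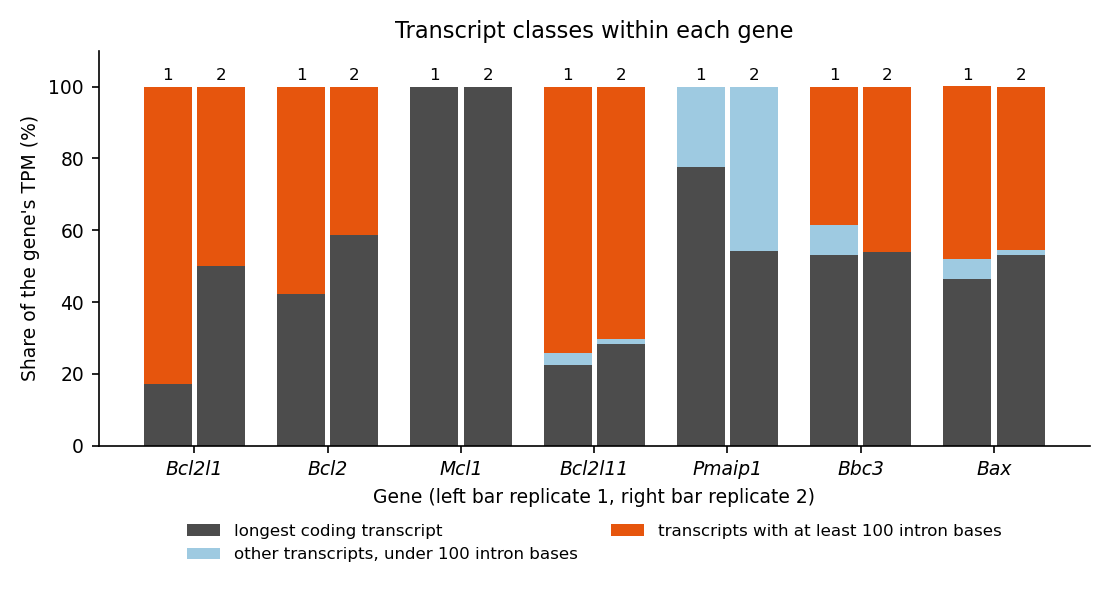
Share of each gene's TPM in the transcript with the longest reading frame, in other transcripts with under 100 intron bases and in intron-bearing transcripts, for the 7 members with 2 or more transcripts, with 1 bar per library. The intron-bearing share of Bcl2l1 was 82.8% in replicate 1 and 49.9% in replicate 2, and that of Bcl2l11 was 74.3% and 70.4%.

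The promoters of Bcl2a1a and Bcl2a1b are shown because their levels lay far apart. The TPM of Bcl2a1b was 30.7 and 33.2 times that of Bcl2a1a in the gene tables, and 16.5 and 20.9 times in the second transcript tables. The 150 bases before the start of each gene (RefSeq, GRCm38.p6, plus strand, chr9:88956750-88956899 for Bcl2a1a and chr9:89199059-89199208 for Bcl2a1b) differ at 1 base, in capitals.
Bcl2a1a: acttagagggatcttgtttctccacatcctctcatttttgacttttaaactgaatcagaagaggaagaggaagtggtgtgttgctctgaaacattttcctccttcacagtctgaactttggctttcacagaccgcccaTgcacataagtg
Bcl2a1b: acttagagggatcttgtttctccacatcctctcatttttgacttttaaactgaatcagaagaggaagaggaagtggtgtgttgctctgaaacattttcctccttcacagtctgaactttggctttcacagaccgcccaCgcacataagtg
RefSeq promoter windows of 300 bases were found for 9 members, 14 windows in all. The consensus motif of NF-kB, searched on both strands, was in 2 of the 14, 1 of 3 windows of Bcl2l1 and 1 of 3 of Bbc3, against 8.46% of 32851 windows of all genes. Windows of the Bcl2a1 copies did not hold it, which says only that these letters are not in this window.

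Other annotated genes overlap 3 members besides Bcl2a1b. Gm10634 lies opposite Bcl2a1d, shares no exon base with it and had 1490 and 564 reads. D630008O14Rik shares 558 exon bases with Bcl2 on the opposite strand and had 7.66 and 7.42 reads. Gm37053 and Mir3473f lie inside Bcl2 on its strand, with 28.0 and 16.0 reads and with 0. Gm45808 shares 192 exon bases with Bax and had 0 reads. No source used here says whether the counting was strand-specific, so these reads are uncertain.

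Other Bcl2 family genes had a lower median TPM than the members, although Bcl2l2, Bid and Bnip3l lay above Bbc3, Bcl2a1a and Bcl2. Of 16, 9 were detected, with a median of 1.55 TPM, against 42.4% of protein-coding genes. Bcl2l2, which encodes the survival protein Bcl-w, had 16.3 and 11.6 TPM. Bid, a BH3-only gene whose protein caspase-8 cleaves, had 11.8 and 7.05 TPM, and Bnip3l, a mitophagy receptor gene, had 8.80 and 9.56 TPM. Bak1 was the 1 gene of the list beyond 2-fold, higher in replicate 2 at a scaled log2 ratio of 1.41, whereas its fellow effector Bax was at -0.41. Bcl2l10, Bik and Hrk had 0 reads in the gene table of either library, a bound of 3 reads each that holds for those tables. Hrk had 8.41 and 10.5 estimated counts in the second transcript tables.

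Of 17 genes of the mitochondrial apoptosis pathway 14 were detected, against 42.4% of protein-coding genes, and their list had a median of 10.6 TPM. Birc3, which encodes the inhibitor of apoptosis cIAP2, had 179 and 78.6 TPM. Apaf1, the scaffold of the apoptosome, had 87.5 and 34.9 TPM, and Xiap, a caspase inhibitor, had 37.6 and 19.6 TPM. Endog, a mitochondrial nuclease gene, was lowest with 4.17 and 3.68 reads. Genes beyond 2-fold included Birc3, lower in replicate 2 at a scaled log2 ratio of -1.05, and Cycs, which encodes cytochrome c, higher at 1.15. In the second transcript tables Birc3 was at -0.78 and Cycs at 0.35, neither beyond 2-fold.

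Of 16 regulators of the members 14 were detected, against 42.4% of protein-coding genes, and the median was 25.6 TPM. Mdm2, the ubiquitin ligase of p53, had 318 and 107 TPM. Huwe1, a ubiquitin ligase of Mcl-1, had 97.8 and 55.3 TPM, and Rel, an NF-kB subunit, had 80.3 and 58.0 TPM. Trp73, a relative of p53, had 0 reads in both libraries. Nfkb1 and Mdm2 were beyond 2-fold lower in replicate 2, at scaled log2 ratios of -1.21 and -1.01, and the co-chaperone gene Bag3 was higher at 1.12. Mdm2 was at -0.98 by library size alone, -0.97 by DESeq2 size factors and -0.94 in the second transcript tables, each short of 2-fold. By the ratio of TPM Mdm2 was beyond 2-fold, at -1.57, and Bag3 was not, at 0.76. Of 10 death receptor and necroptosis genes 9 were detected, against 42.4% of protein-coding genes, and the median was 6.52 TPM. In this list 0 were beyond 2-fold, against 8.39% of genes with a mean of at least 50 reads. Cflar, which encodes the caspase-8 inhibitor c-FLIP, had 300 and 170 TPM, Casp8 had 30.4 and 26.9 TPM, and the kinase gene Ripk1 had 29.0 and 23.7 TPM. Tnfrsf10b, the TRAIL receptor gene, was lowest with 27.0 and 17.0 reads in the gene tables. In the second transcript tables it had 3.60 and 2.17 TPM and Fadd was lowest, at 0.573 and 0.742 TPM.

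**Figure D5:**
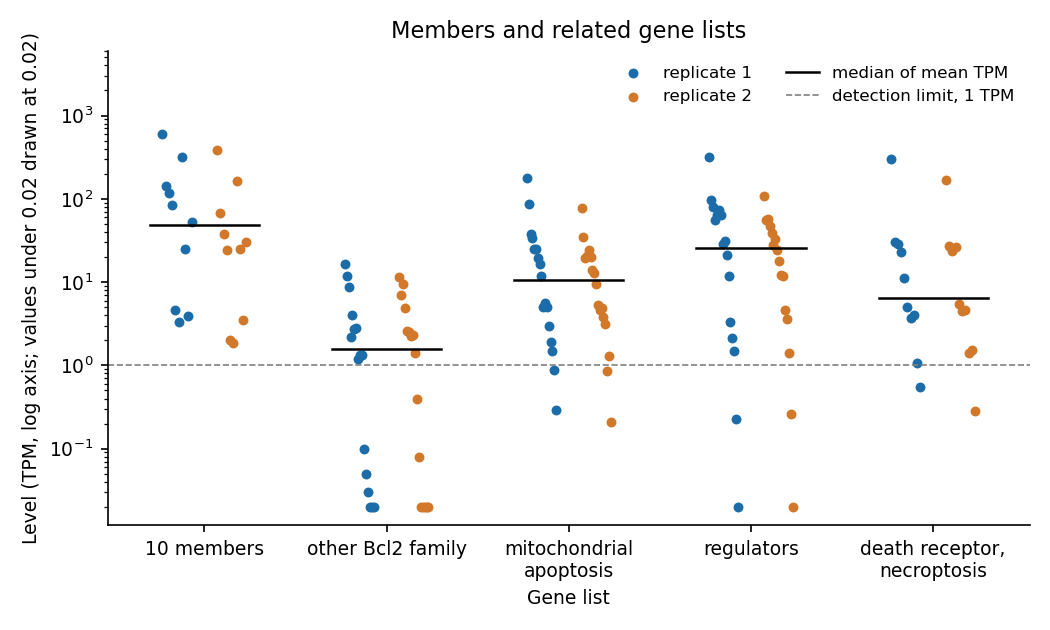
Levels in TPM on a log axis, 1 point per gene and library, for the 10 members and 4 lists of related genes, with the median of mean TPM as a black line and values under 0.02 drawn at 0.02. The members' median was 48.1 TPM, and that of the other Bcl2 family genes was 1.55 TPM.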

How the data were processed

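Total RNA of the nuclear fraction was sequenced in 2 libraries of 1 group, with no control, so no p-value was computed. Per the deposited text files, reads were on mm10 with GENCODE M21. No source used here names the tools. The deposited gene tables give expected counts, which need not be whole, and TPM, per the file headers. Per the file headers, the first deposited transcript table gives each transcript's percent of its gene, and the second estimated counts and TPM. The deposited interval bounds and posterior SDs, treated as a score, carry no stated level. The bounds refer to a posterior mean TPM, so they were taken relative to it.

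Expected counts were rounded and scaled by TMM (edgeR 4.0.16, R 4.3.3). Size factors of DESeq2 1.42.0, counts in place of TPM, other limits and either library alone were alternatives. Rows with no annotated gene held 1.19% and 0.213% of counts and were left out. Detection took TPM of at least 1 in both libraries. A count of 0 allows up to 3 counts, for counting error only. The ratio script was tested on simulated data with planted changes well above 2-fold and bounds from counting error alone. That test does not cover calls near 2-fold or the deposited bounds. The rule for named genes was all members, the lowest and the 3 highest members of each related list by mean TPM, genes of those lists beyond 2-fold and genes overlapping a member. 1 result under this rule is not reported here. The members and lists were chosen with earlier results of these data known. The intron-bearing class, the sequences shown and the motif were chosen after values were seen.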

Additional observations from a re-analysis of the deposited data

How the results depend on the processing

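The 10 members stayed detected with a limit of 0.5 TPM, in the second transcript tables, in TPM rescaled over protein-coding genes and in either library alone, and 7 were detected at 5 TPM. At 5 TPM, 3 other Bcl2 family genes and 5 death receptor and necroptosis genes were detected, against 9 and 9 at 1 TPM. The 14 detected genes of the mitochondrial apoptosis pathway became 16 at 0.5 TPM and 10 at 5 TPM. With TPM rescaled over protein-coding genes they became 17. The survival share of 70.2% was 68.4% in the second transcript tables and 72.8% of expected counts, moves larger than the SD between the libraries of 0.247. The mean Bcl2a1d share of the Bcl2a1 TPM ranged from 35.1% to 44.8% over either library alone. Bcl2a1d and Bcl2l1 were beyond 2-fold with every scaling tried, and Bcl2a1b was as well by the ratio of TPM, which moved 8 of 10 log2 ratios outside their intervals. Interval bounds relative to TPM, an alternative chosen after seeing the data, left both calls. Over all genes, 877 were beyond 2-fold, 498 higher and 379 lower in replicate 2. The ratio of TPM gave 1598, 140 higher and 1458 lower, no read minimum gave 5235, and 1523 came from the second transcript tables. Mean TPM of 5 members moved beyond the SD in the second tables, among them Mcl1 with 293 against 495. The causes were not tested. No paired analysis was possible because there is 1 group. Depth limits Bcl2a1a, with 46.8 and 26.1 reads, and Bbc3, with 74.0 and 87.0, and 2 libraries give no more than a range.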

Other observations

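For some Bcl2 family genes outside the 10 members, the side of the detection limit differed between the tables. The examples were chosen after their values were seen. Bcl2l15 had 3 reads and 1 read in the gene tables, below the detection limit, and 15.3 and 2.96 TPM in the second transcript tables. Bak1 and Bmf were detected in the gene tables, and in the second transcript tables were below the limit in replicate 1, at 0.869 and 0.644 TPM. The further copy Bcl2a1c had 5 and 2 reads, below the detection limit in replicate 2. Among the Bcl2a1 copies, reads were assigned almost wholly to Bcl2a1b and Bcl2a1d, by a split that is uncertain. In TPM rescaled over protein-coding genes, which leaves out Rn7sk, Mcl1 had 2188 and 1911, Bcl2l11 1166 and 812, Bcl2l1 308 and 121, and Pmaip1 90.9 and 124.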
